A study of Oryctolagus cuniculus with 12 samples.

Results

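Trabeculectomy (TL) drains aqueous humor from the eye into a pocket under the conjunctiva, the filtering bleb, and lowers intraocular pressure as long as that pocket does not scar closed. The comparison described here set the earliest bleb, conjunctiva taken 3 hours after surgery (TL3h), against the latest, taken 14 days after surgery (TL14d), to ask which genes and processes separated them. It used 6 of the 12 libraries of the series, all those labelled with these times, 3 from each. Every gene of the deposited table entered. The animals were female rabbits of the Japanese white strain, and the labels give no age. In both groups the right eye was operated on and mitomycin C, an antimetabolite that crosslinks DNA, was applied. The study's account of its trabeculectomy ends with betamethasone, a glucocorticoid, injected under the conjunctiva, and an antibiotic ointment. The study took these libraries from data analyzed earlier, and whether that account holds for them in every detail is not stated in the labels. The other 6 libraries, 3 from blebs at 3 days (TL3d) and 3 from unoperated left eyes (control), shared the estimate of the spread and are given only beside the 2 groups compared. The day on which each control eye was taken and the operated animal to which it belonged are not used here. One library held the whole conjunctiva with its bleb, so that epithelium, stroma, vessels, and infiltrating cells were measured together, and fewer cells of a type and less RNA per cell cannot be told apart.

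Wound repair runs in overlapping phases. Damaged and stressed cells first transcribe immediate early genes, cytokines, and chemokines, and neutrophils are the first leukocytes to arrive. Epithelial and stromal cells then divide and migrate, and in the last phase fibroblasts and myofibroblasts deposit and contract a collagen-rich matrix, the process on which bleb failure depends.

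Library totals overlapped between the groups, at 31377288 to 34929841 estimated counts for TL3h and 27111276 to 33765867 for TL14d. TMM normalization factors, which correct for the makeup of a library, did not overlap (0.768 to 0.783 for TL3h and 1.07 to 1.097 for TL14d). Levels are given as CPM, the counts of a gene scaled to a fixed library total, on library sizes adjusted by these factors, and differences as log2 fold changes of TL14d over TL3h with their standard error (SE). A gene was called at q ≤ 0.05, the Benjamini-Hochberg adjusted p-value of edgeR's quasi-likelihood test. The tissue label was checked against 22 markers of conjunctival epithelium. Of these, 19 were found in the table, and their summed level was 8280.1 to 13578 CPM at TL3h and 13715 to 18878 CPM at TL14d. The 3 TL3h libraries resembled each other, but the TL14d libraries did not. The log2 CPM values of TL14d replicate 1 correlated with those of the control libraries at a mean r of 0.969 and with those of the other TL14d libraries at 0.914, a description over genes. TL14d replicate 2 was nearer to the TL3d libraries (0.942) than to its own group (0.927), by a smaller margin. Where leaving out replicate 1 changed the call of a gene whose levels are given, that is stated beside the gene.

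**Figure D1:**
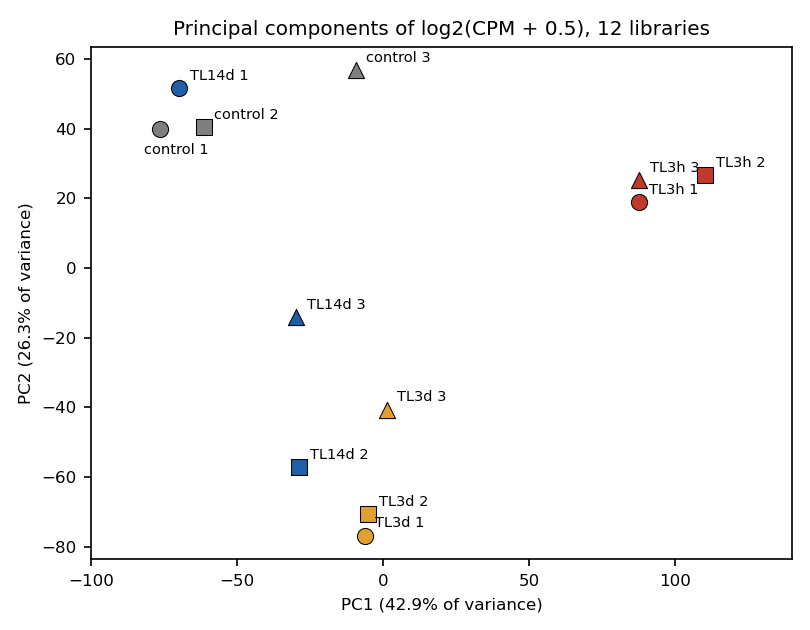
Principal components of log2(CPM + 0.5) over the genes tested, 1 point per library, with the share of variance on each axis, color for the group and marker shape for the replicate number. The 3 TL3h libraries lie together at the right, and TL14d replicate 1 lies among the control libraries, away from TL14d replicates 2 and 3.

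Of 20566 genes in the table, 14835 passed the filter on low counts and were tested. The 2 times differed in 6715 of them (45.3%), with 3402 genes higher at TL14d (22.9%) and 3313 lower (22.3%). Counts of called members in the gene lists below stand beside these shares. A change of at least 2-fold was reached by 2286 of the higher and 1925 of the lower genes, and one of at least 8-fold by 275 and 350. The 3 libraries of one time did not overlap with the 3 of the other in 7830 genes (52.8%). Without TL14d replicate 1, 3152 genes were higher (20.9%) and 3188 lower (21.1%), and 5660 of the 6715 genes were called again in the same direction. The balance of directions depended on the scaling. With library size alone the median over all genes moved from 0.00 to 0.49 on the log2 scale, and 5775 genes were then higher (38.9%) and 1669 lower (11.3%), so that changes below are relative to the TMM scale.

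The leading genes were ranked by the difference between the group means of log2(CPM + 0.5), so that their order is not that of the fitted log2 fold changes printed here. Only called genes without overlap between the TL3h and TL14d libraries were ranked, so that their separation was set by the choice. Those lowest at TL14d relative to TL3h included genes for inflammatory and metal-binding proteins and for a protease. PTX3 (gene 100343665, chr14:51841657-51848103), a secreted pattern recognition protein of innate immunity, led them. Its level was 1165, 1098, and 897 CPM in the TL3h libraries and 2.69, 1.85, and 5.73 CPM in the TL14d libraries (log2 fold change, −8.27 ± 0.93 SE, q = 1.37e-04). All TL14d values lay within the range of the control eyes, 0.617, 1.48, and 6.04 CPM. LOC100343299 (gene 100343299, chr5:12908565-12909376), annotated as metallothionein-2A, a protein that binds zinc and copper, fell from 1285, 1772, and 1249.8 CPM to 2.62, 7.31, and 6.58 CPM (log2 fold change, −8.02 ± 1.42 SE, q = 0.00141). LOC100343557 (gene 100343557, chr5:12927577-12929021), annotated as metallothionein-2D, lies beside it and fell from 521, 570.3, and 379.6 CPM to 3.497, 2.06, and 2.604 CPM (log2 fold change, −7.49 ± 1.16 SE, q = 6.82e-04). The estimated counts of the latter were not whole numbers in 75% of the libraries, so that the separate levels of this pair of similar genes are uncertain.

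MMP10 (gene 100101603, chr1:113775307-113786879), the matrix metalloproteinase stromelysin 2, was at 2292, 1973, and 2664 CPM at TL3h and at 1.68, 73.6, and 7.26 CPM at TL14d (log2 fold change, −6.39 ± 1.73 SE, q = 0.0133). IDO1 (gene 100358205, unplaced sequence), which degrades tryptophan and restrains T cells, fell from 925, 1065, and 409 CPM to 0.235, 15.5, and 11.8 CPM (log2 fold change, −6.44 ± 1.44 SE, q = 0.00501). DHRS9 (gene 100339898, chr7:108830638-108852929), a dehydrogenase of retinoids and steroids, was at 107, 97.9, and 52.1 CPM at TL3h and at or near 0 in control eyes, 0.0237, 0.02501, and 0.0502 CPM. At TL14d it was at 0.0672, 1.01, and 0.0326 CPM (log2 fold change, −7.79 ± 1.72 SE, q = 0.00466). C13H1orf162 (gene 103350099, chr13:52735296-52740270) was at 1198, 1262, and 551 CPM and at 0.941, 21.1, and 6.93 CPM (log2 fold change, −6.70 ± 1.44 SE, q = 0.00403).

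The leading genes included 2 cytokines, IL6 and CCL2, whose proteins were also measured in aqueous humor in the study. IL6 (gene 100008733, chr10:7771596-7776408), the main inducer of the acute phase response, was at 408, 487, and 252 CPM at TL3h and 0.0336, 18.2, and 1.595 CPM at TL14d (log2 fold change, −5.85 ± 1.47 SE, q = 0.00912). CCL2 (gene 100009130, chr19:23720271-23721930), the monocyte chemoattractant MCP-1, was at 418, 517, and 359.6 CPM and 0.605, 20.1, and 2.47 CPM (log2 fold change, −5.80 ± 1.25 SE, q = 0.004003). TL14d replicate 2 was the highest of its group for both. CXCR1 (gene 100328622, chr7:159538471-159542419) and CXCR2 (gene 100328627, chr7:159494015-159501196), receptors for CXCL8 on neutrophils, fell by 6.94 and 7.02 on the log2 scale (q = 0.00427 and 0.00401). CXCR1 was at 437, 624, and 227 CPM at TL3h and 0.403, 2.66, and 7.39 CPM at TL14d. CXCR2 was at 177, 235, and 82.6 CPM and 0.168, 0.897, and 2.73 CPM. Each of these 11 genes kept q ≤ 0.05 under all 20 alternative settings, and TL3d lay between TL3h and TL14d in the group means of all 11.

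By the same ranking the genes highest at TL14d relative to TL3h are given in 2 sets that overlap in their traits. In the first set TL3h stood far below the control eyes. All of its genes but FAT2 also had a TL14d library above every control eye. FAT2 (gene 100347471, chr3:32975018-33052544), an atypical cadherin of epithelia, was at 16.99, 9.79, and 9.0 CPM at TL3h and 201, 140.1, and 235 CPM at TL14d (log2 fold change, 4.01 ± 0.39 SE, q = 6.62e-05), with control eyes at 279, 251, and 120.5 CPM. LOC103352092 (gene 103352092, unplaced sequence), annotated as SRGAP3, was at 4.23, 2.49, and 3.695 CPM and 90.3, 44.04, and 45.6 CPM (log2 fold change, 4.11 ± 0.41 SE, q = 7.91e-05). Its control libraries were at 84.8, 61.4, and 35.8 CPM. RBBP8NL (gene 103347278, unplaced sequence) rose from 1.15, 0.456, and 1.21 CPM to 50.7, 12.7, and 19.6 CPM (log2 fold change, 4.87 ± 0.65 SE, q = 3.13e-04), beside 28.3, 26.2, and 10.03 CPM in control eyes. S1PR5 (gene 100350217, unplaced sequence), a receptor for sphingosine-1-phosphate, rose from 2.04, 1.41, and 3.59 CPM to 27.7, 57.6, and 33.8 CPM (log2 fold change, 4.08 ± 0.48 SE, q = 1.61e-04). The control libraries were at 27.5, 26.2, and 11.2 CPM for this receptor. FAM167A (gene 100346260, chr2:38466137-38514294) rose from 0.846, 0.249, and 0.805 CPM to 17.99, 27.4, and 39.9 CPM (log2 fold change, 5.47 ± 0.58 SE, q = 9.73e-05). The control eyes held 17.1, 13.01, and 7.98 CPM of it. LOC100346910 (gene 100346910, chr18:40838698-40842164), annotated as CYP26A1, which degrades retinoic acid, rose from 1.54, 0.373, and 0.841 CPM to 30.96, 80.7, and 10.8 CPM (log2 fold change, 5.47 ± 0.89 SE, q = 9.11e-04), beside 17.1, 9.08, and 4.44 CPM in control eyes.

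In the second set TL14d replicates 2 and 3 stood far above every control eye, whereas TL14d replicate 1 lay within or just above the control range. COL8A1 (gene 100009383, chr14:120913933-121077408), a chain of the short-chain collagen VIII of vessel walls and basement membranes, was at 18.03, 8.63, and 10.1 CPM at TL3h and 28.7, 430.2, and 493 CPM at TL14d (log2 fold change, 4.70 ± 0.90 SE, q = 0.00215), beside 25.6, 32.2, and 17.3 CPM in control eyes. ADAMTS18 (gene 100344817, chr5:31921287-32078218), a secreted metalloproteinase, was at 0.192, 0.207, and 0.366 CPM and 1.85, 44.7, and 76.9 CPM (log2 fold change, 7.31 ± 1.55 SE, q = 0.003802). Its relative ADAMTS6 (gene 100355552, chr11:81327330-81645253) was at 1.61, 1.24, and 1.32 CPM and 7.296, 44.7, and 63.2 CPM (log2 fold change, 4.78 ± 0.82 SE, q = 0.00117). For both proteases TL14d replicates 2 and 3 were higher than replicate 1. Both were also lower in every TL3h library than in any control eye. The control eyes were at 1.14, 2.95, and 0.552 CPM for ADAMTS18 and 5.08, 7.55, and 3.29 CPM for ADAMTS6.

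LGI2 (gene 100344968, chr2:15572414-15605393), a secreted leucine-rich repeat protein, was at 0.692, 0.415, and 0.366 CPM and 1.98, 27.2, and 40.4 CPM (log2 fold change, 5.55 ± 1.03 SE, q = 0.00183). LOC103346072 (gene 103346072, unplaced sequence), annotated as the peptidyl-arginine deiminase PADI1, which citrullinates epithelial proteins, was at 1.88, 1.08, and 2.27 CPM and 11.9, 51.4, and 53.1 CPM (log2 fold change, 4.47 ± 0.68 SE, q = 5.88e-04). CNGA3 (gene 100349478, chr2:93753306-93782379), known as the cyclic nucleotide-gated channel subunit of cone photoreceptors, had 3 counts in all at TL3h against 4949 at TL14d, almost all of them in replicates 2 and 3 (levels, 0.134, 93.8, and 48.6 CPM). The ratio of the summed counts per library size was 1314, with a 95% interval of 449 to 6372 that covers counting error only (q = 0.00358). Each of these 12 higher genes kept q ≤ 0.05 under all 20 alternative settings.

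**Figure D2:**
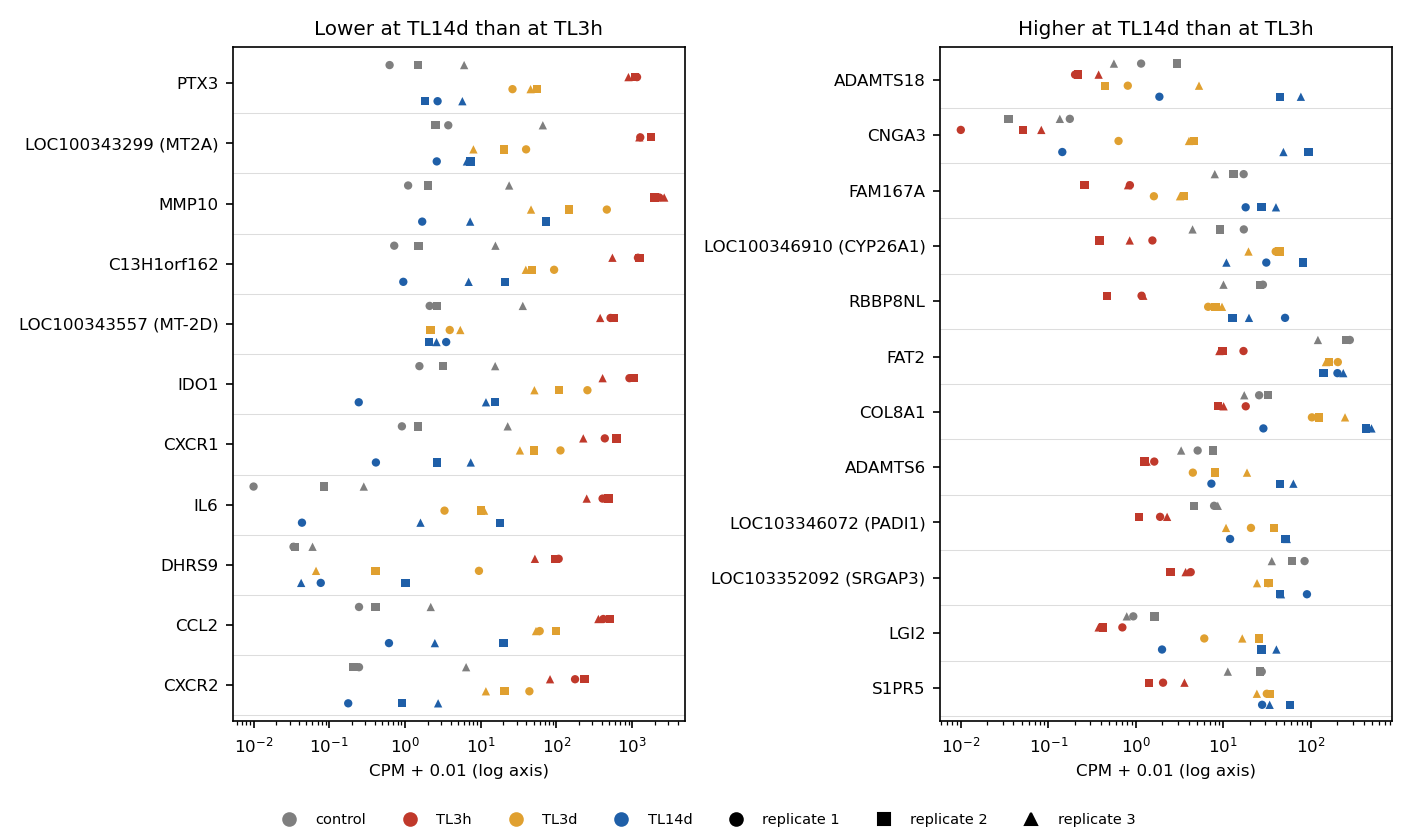
Level of the leading genes, 11 lower (left) and 12 higher (right) at TL14d, in CPM + 0.01 on a log axis, 1 point per library, color for the group and marker shape for the replicate number. All 23 genes were chosen for having no overlap between TL3h and TL14d. For ADAMTS18, CNGA3, COL8A1, ADAMTS6, and LGI2 TL14d replicate 1 lies well below replicates 2 and 3.

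Immediate early genes, the transcription factors and phosphatases that cells switch on within minutes of a stimulus, were lower at TL14d in 21 of 26 members tested, where 22.3% of all genes tested were lower, and none was higher. The list's median log2 fold change was −2.50, against 0.00 over all genes tested, and 18 to 22 members were lower when single libraries were left out. FOSL1, a subunit of the transcription factor AP-1, was at 117, 115, and 87.5 CPM at TL3h and 0.0672, 2.58, and 0.814 CPM at TL14d (log2 fold change, −6.50 ± 1.20 SE, q = 0.00178). FOSB, another AP-1 subunit, fell from 108, 129, and 58.2 CPM to 7.598, 11.2, and 2.77 CPM (log2 fold change, −3.77 ± 0.51 SE, q = 3.39e-04). The orphan nuclear receptor NR4A3 fell from 102, 122, and 134 CPM to 1.98, 11.9, and 2.93 CPM (log2 fold change, −4.41 ± 0.90 SE, q = 0.00312), and DUSP5, a nuclear phosphatase of ERK, from 121, 129, and 105 CPM to 5.38, 14.7, and 4.07 CPM (log2 fold change, −3.88 ± 0.46 SE, q = 1.73e-04). EGR1 was not called, although its groups did not overlap, at 767, 515, and 631 CPM and 376, 153, and 42.2 CPM (q = 0.104). It was lower without TL14d replicate 1 (q = 0.0336, range over 20 alternative settings, 0.0201 to 0.223).

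Genes that glucocorticoids induce were lower in 15 of 21 members tested, beside 22.3% of all genes tested, and higher in none (median, −2.57). ERRFI1, an inhibitor of the EGF receptor, had the smallest q of any gene named here and fell from 688, 589, and 734 CPM to 30.7, 35.7, and 26.9 CPM (log2 fold change, −4.43 ± 0.25 SE, q = 1.35e-05). RGS2, which shortens G protein signals, fell from 869, 984, and 474 CPM to 5.95, 49.99, and 17.4 CPM (log2 fold change, −4.99 ± 1.17 SE, q = 0.00642). FKBP5, a co-chaperone of the glucocorticoid receptor, was at 185, 231, and 296 CPM and 8.84, 24.8, and 13.5 CPM (log2 fold change, −3.91 ± 1.35 SE, q = 0.0374). One control eye was above every TL3h library, with 7.26, 8.83, and 454 CPM in the controls. Its q was 0.0505 to 0.104 in the 8 fits without TL3d replicate 1 or 2 or any one TL3h or TL14d library (range over 20 settings, 1.07e-04 to 0.104). TSC22D3, known as GILZ, overlapped between the groups at 282, 328, and 196 CPM and 368, 86.6, and 109 CPM and was not called (q = 0.444). It was lower without TL14d replicate 1 (q = 0.0138, range over 20 settings, 0.0138 to 0.975). The list shares DUSP1, NFKBIA, TNFAIP3, GADD45A, PER1, and CD163 with other lists.

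Of 19 acute inflammatory cytokines tested, 10 were lower at TL14d and 2, CSF2 and IL15, were higher, beside 22.3% and 22.9% of all genes tested. The median of the list was −2.37 and ranged from −4.31 to −2.05 with single libraries left out. The growth factor of neutrophils CSF3, known as G-CSF, fell from 170.3, 57.6, and 173 CPM to 1.68, 9.45, and 1.56 CPM (log2 fold change, −4.97 ± 1.03 SE, q = 0.00327). IL36A, an epithelial member of the interleukin-1 family, fell from 35.7, 5.81, and 16.8 CPM to 0.0672, 1.17, and 0.0326 CPM (log2 fold change, −5.47 ± 1.39 SE, q = 0.00947). IL20, which acts on epithelial cells, fell from 208, 47.7, and 96.99 CPM to 0, 10.1, and 0.553 CPM (log2 fold change, −5.03 ± 1.46 SE, q = 0.0182), and its q was 0.0545 without TL3h replicate 1 and 0.05305 without TL14d replicate 3 (range over 20 settings, 0.00123 to 0.0611). IL1B was not called. TL14d replicate 2 had 296 CPM beside 0.235 and 12.7 CPM in the other two libraries of its group and 469, 411, and 294 CPM at TL3h (q = 0.348). It was called without that replicate (q = 0.0186, range over 20 settings, 0.0186 to 0.549). The counts of the list depended on single libraries, with 7 lower members without TL14d replicate 3, 14 lower members without TL14d replicate 2, 1 higher member without TL14d replicate 3, and no higher member without TL14d replicate 2 or any one TL3h library.

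Of 28 chemokines and chemokine receptors tested, 8 were lower and 2, CCL20 and CX3CR1, higher at TL14d (median, −0.79), beside 22.3% lower and 22.9% higher over all genes tested. The median of the list ranged from −1.64 to −0.36 with single libraries left out. CXCL8, the main neutrophil chemokine, is given below with the neutrophil genes. CCR1, a receptor of monocytes and granulocytes, fell from 173, 208, and 85.98 CPM to 0.0336, 15.7, and 2.34 CPM (log2 fold change, −4.68 ± 1.40 SE, q = 0.0206), and q was 0.0691 without TL14d replicate 3 (range over 20 settings, 8.05e-04 to 0.0691). The number of higher members was 4 without TL14d replicate 1 and 5 without TL14d replicate 3. Among NF-κB subunits, inhibitors, and targets, 13 of 25 members tested were lower and 1, TRAF1, was higher (median, −1.18). PTGS2, the inducible cyclooxygenase COX-2, fell from 356, 426, and 313 CPM to 2.02, 22.4, and 8.72 CPM (log2 fold change, −5.04 ± 0.84 SE, q = 0.00103). The inhibitors of NF-κB signaling TNFAIP3, known as A20, and BCL3 fell by 2.58 and 2.35 on the log2 scale (q = 0.00272 and 0.00148). TNFAIP3 was at 207, 217, and 150.4 CPM at TL3h and 16.9, 57.2, and 22.3 CPM at TL14d. BIRC3, an inhibitor of apoptosis, overlapped because of TL14d replicate 2, at 302, 187, and 329.9 CPM and 49.6, 258, and 80.9 CPM (q = 0.117), and was called without that replicate (q = 0.00201, range over 20 settings, 0.00201 to 0.365). TRAF1 was no longer called without TL3h replicate 1, 2, or 3 or TL14d replicate 2, and a second higher member was called without control replicate 2 or 3 or TL14d replicate 1 or 3.

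Neutrophil markers were lower at TL14d in 10 of 13 members tested, beside 22.3% of all genes tested. None of the markers was higher (median, −4.98, range with single libraries left out, −5.84 to −4.51). Their summed level was 2554, 3429, and 1351 CPM at TL3h and 4.77, 130.4, and 68.5 CPM at TL14d, beside 5.58, 11.8, and 104 CPM in control eyes. CSF3R, the receptor for G-CSF, was at 701, 607, and 228 CPM and 1.01, 6.63, and 16.8 CPM (log2 fold change, −5.98 ± 1.36 SE, q = 0.00551). S100A9, a subunit of calprotectin, was at 193, 429, and 148 CPM and 0.672, 11.7, and 9.51 CPM (log2 fold change, −5.14 ± 1.38 SE, q = 0.0128). Its partner S100A8 was at 424, 943, and 362 CPM and 0.672, 24.6, and 18.5 CPM (log2 fold change, −5.30 ± 1.64 SE, q = 0.0242), and q was 0.0572 without TL3h replicate 2 and 0.0645 without TL14d replicate 3 (range over 20 settings, 1.14e-04 to 0.0645). The formyl peptide receptors FPR1 and FPR2, which guide neutrophils to bacterial peptides, had separate groups but were not called (q = 0.123 and 0.0952). FPR2 was at 183, 238, and 148 CPM and 0, 39.9, and 2.34 CPM, with TL14d replicate 2 the highest of its group. Both were called without that library (q = 0.00948 for FPR1 and 0.0129 for FPR2, ranges over 20 settings, 0.00948 to 0.258 and 0.0129 to 0.209). MPO, made in immature neutrophils, was below the filter. The inflammatory genes above fell together with these markers, whose part in that fall was not tested.

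CXCL8 itself was at 2277, 1634, and 2075 CPM at TL3h and 0.572, 494, and 21.7 CPM at TL14d (q = 0.114). TL14d replicate 2 was again far above the rest of its group, and without it the gene was lower (q = 0.00946, range over 20 settings, 0.00946 to 0.232). Per transcript length, in the deposited FPKM values, the mean TL3h level was 963 ± 172 (SD, n = 3) for CXCL8, 612 ± 98.5 for CCL2, 239.9 ± 52.2 for IL1B, and 254 ± 74.6 for IL6, so that CXCL8 stood above CCL2 by more than their SDs, and IL6 and IL1B differed by less than theirs.

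Complement genes were lower in 8 of 19 members tested and higher in 1, CFI (median, −1.91), beside 22.3% and 22.9% of all genes tested. C5AR1, the receptor for the anaphylatoxin C5a on neutrophils and macrophages, fell from 174, 186, and 113 CPM to 3.56, 14.3, and 13.9 CPM (log2 fold change, −3.90 ± 0.80 SE, q = 0.00306). CFP, known as properdin, which stabilizes the alternative pathway convertase, fell from 34.9, 44.5, and 18.1 CPM to 4.71, 7.39, and 4.95 CPM (log2 fold change, −2.51 ± 0.52 SE, q = 0.00321). The number of lower members was 4 or 5 when any one of the TL3h libraries, TL14d replicate 2, or TL14d replicate 3 was left out, and CFI was lost without TL3h replicate 3 or TL14d replicate 3. The members SERPING1 and C1QC passed narrowly (q = 0.0463 and 0.0325) and lost the call in 9 and 5 of the 12 fits without a library. SERPING1, an inhibitor of C1, was at 379, 576, and 329 CPM and 153, 29.9, and 127 CPM. Its q was 0.0516 to 0.127 in those 9 fits, among them 0.0540 without TL14d replicate 1 (range over 20 settings, 0.0116 to 0.127). C1QC, a chain of C1q made by macrophages, was at 133, 179, and 119 CPM and 55.7, 13.6, and 40.2 CPM, and its q was 0.0605 without TL3h replicate 1, 0.08904 without TL3h replicate 2, 0.0556 without TL3h replicate 3, 0.0833 without TL14d replicate 2, and 0.0725 without TL14d replicate 3 (range over 20 settings, 0.00661 to 0.08904).

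Genes for making ribosomes moved almost as a block. Ribosome biogenesis factors were lower in 28 of 29 members tested (median, −2.09), and 28 were lower whichever library was left out. NOP56, a core protein of box C/D snoRNPs, was at 323, 475, and 316 CPM at TL3h and 43.4, 46.6, and 50.4 CPM at TL14d (log2 fold change, −2.99 ± 0.21 SE, q = 2.39e-05), beside 43.4, 35.2, and 47.1 CPM in control eyes. Its partner NOP58 was at 276, 278, and 308 CPM and 31.8, 50.2, and 41.4 CPM (log2 fold change, −2.80 ± 0.18 SE, q = 1.66e-05). DDX21, a nucleolar RNA helicase, was at 622, 692, and 628 CPM and 63.9, 116, and 88.1 CPM (log2 fold change, −2.86 ± 0.25 SE, q = 4.56e-05). For all 3 genes the TL14d libraries were close together and near the control level. The single member that did not pass was UTP20, at 115, 94.2, and 148 CPM and 198, 156, and 115 CPM (q = 0.255). The proteins of the mature ribosome behaved differently. Cytosolic ribosomal protein genes were lower in 9 of 62 members tested and higher in none (median, −0.30). Without TL14d replicate 1, 44 were lower, whereas 3 to 5 were lower when another TL14d or a TL3h library was left out, and the median lay between −0.56 and −0.11 over the fits without a library. With library size alone, which raised genes in general, 3 were higher and none lower.

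Among heat shock proteins and cochaperones 11 of 17 members tested were lower and 2, HSPB1 and HSPA4L, higher (median, −0.99). Over all genes tested the shares were 22.3% lower and 22.9% higher. HSPD1, the mitochondrial chaperonin HSP60, fell from 546, 680.4, and 599.7 CPM to 102, 158, and 139.7 CPM (log2 fold change, −2.19 ± 0.18 SE, q = 3.92e-05). HSPA5, the chaperone BiP of the endoplasmic reticulum, fell from 1682, 2059.8, and 1902 CPM to 256, 656, and 505 CPM (log2 fold change, −1.99 ± 0.30 SE, q = 5.92e-04), and HSPA8, the constitutive cytosolic HSC70, from 4970.1, 4165, and 3830.4 CPM to 892, 1659, and 1192 CPM (log2 fold change, −1.79 ± 0.26 SE, q = 4.32e-04). The number of higher members was 1 without control replicate 2, TL3h replicate 3, or TL3d replicate 2. Targets of ATF4 and of the unfolded protein response were lower in 14 of 23 members tested and higher in none (median, −1.50). SLC7A5 and SLC3A2 encode the light and heavy chains of the amino acid transporter LAT1. SLC7A5 fell from 404, 609.5, and 405 CPM to 22.3, 49.3, and 31.8 CPM (log2 fold change, −3.78 ± 0.49 SE, q = 2.61e-04) and SLC3A2 from 496, 708, and 443 CPM to 71.1, 106, and 87.5 CPM (log2 fold change, −2.64 ± 0.35 SE, q = 3.04e-04). TRIB3, a pseudokinase induced by ATF4 and CHOP, fell from 12.4, 20.04, and 26.1 CPM to 1.65, 1.93, and 1.69 CPM (log2 fold change, −3.47 ± 0.44 SE, q = 2.41e-04).

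Of 29 proteasome subunits tested, 24 were lower and none higher, by a small amount (median, −0.59), and with library size alone 2 were lower and 1 higher. PSMD11, a subunit of the regulatory lid, fell from 218, 229, and 227 CPM to 73.7, 107, and 79.9 CPM (log2 fold change, −1.37 ± 0.18 SE, q = 2.54e-04). Among genes of glycolysis and the hypoxia response 14 of 27 members tested were lower and 2, CA9 and GPI, higher (median, −0.87). ADM, adrenomedullin, a vasodilator peptide induced by hypoxia, fell from 496, 438, and 432 CPM to 7.83, 4.32, and 7.03 CPM (log2 fold change, −6.16 ± 0.78 SE, q = 2.41e-04). PFKFB3 and HK2, which drive glucose into glycolysis, fell from 616, 515, and 467 CPM to 84.6, 178, and 95.8 CPM (log2 fold change, −2.16 ± 0.33 SE, q = 5.999e-04) and from 322, 271, and 429.99 CPM to 68.9, 93.001, and 80.9 CPM (log2 fold change, −2.07 ± 0.26 SE, q = 2.14e-04). Some abundant enzymes of the pathway were not called. LDHA was at 1343, 572, and 690.1 CPM and 345, 612, and 442 CPM (q = 0.105), and ENO1 at 445, 639, and 527 CPM and 701, 611, and 588 CPM (q = 0.264). The number of higher members was 1 without TL3h replicate 2 or TL14d replicate 1.

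**Figure D3:**
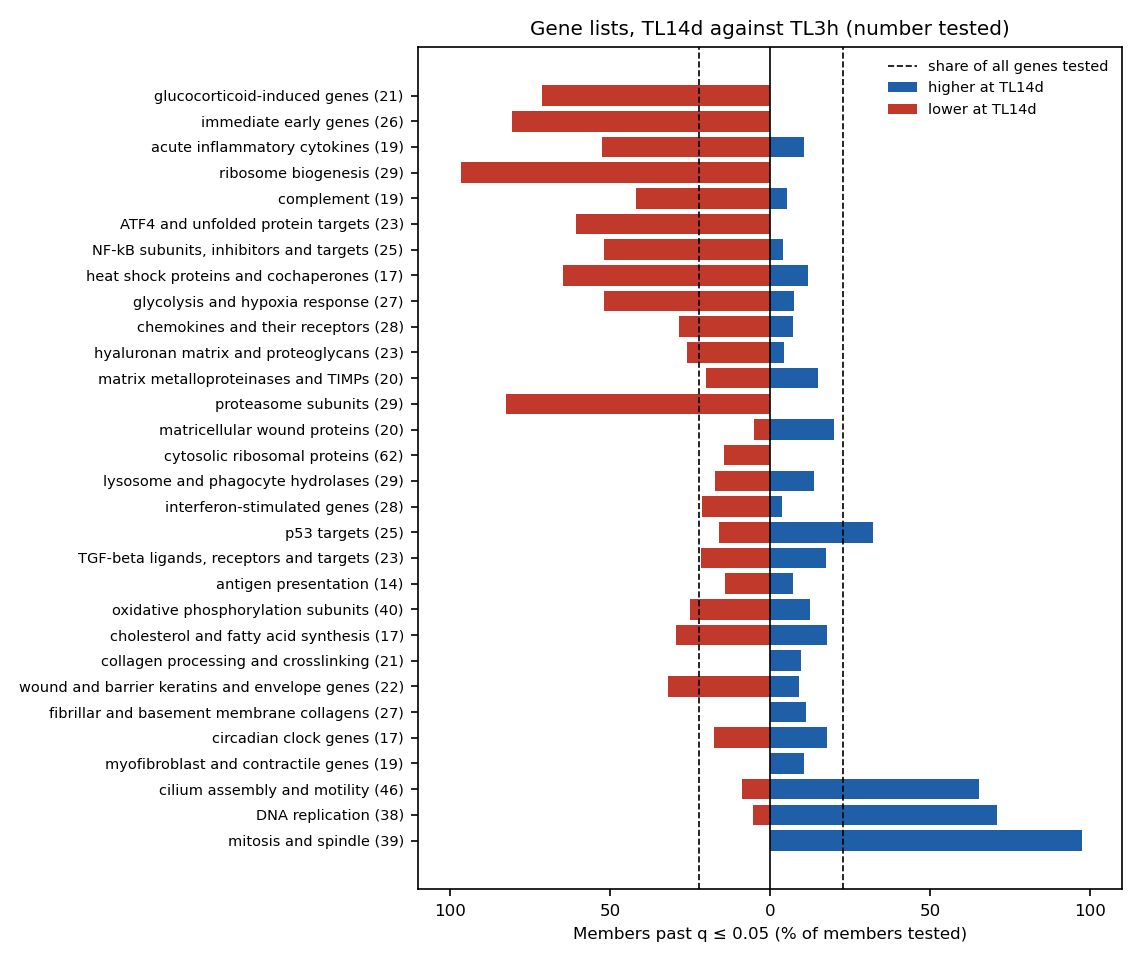
Share of the members tested of each of the 30 process lists that were past q ≤ 0.05, higher at TL14d to the right and lower to the left, in %, with the number of members tested in parentheses. Lists are ordered by their median log2 fold change, and the dashed lines mark the share over all genes tested, 22.9% higher and 22.3% lower. Mitosis, DNA replication, and cilium lists reach furthest to the right, and ribosome biogenesis, proteasome, and immediate early lists furthest to the left.

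Genes of cell division were higher at TL14d. Of 39 genes of mitosis and the spindle, all of them tested, 38 were higher and none was lower (median, 2.58, range with single libraries left out, 2.44 to 2.82). KIF2C, a kinesin that depolymerizes microtubules at centromeres, was at 0.423, 0.332, and 0.841 CPM at TL3h and 4.91, 6.55, and 7.78 CPM at TL14d (log2 fold change, 3.58 ± 0.42 SE, q = 1.61e-04). CCNB2, a cyclin of mitotic entry, was at 1.15, 0.415, and 1.02 CPM and 5.98, 9.43, and 10.1 CPM (log2 fold change, 3.29 ± 0.40 SE, q = 1.97e-04). The spindle checkpoint kinase BUB1B rose from 1.58, 1.54, and 2.09 CPM to 12.6, 17.01, and 17.4 CPM (log2 fold change, 3.17 ± 0.27 SE, q = 4.04e-05), and DLGAP5, which stabilizes spindle microtubules, from 1.42, 1.04, and 1.39 CPM to 8.77, 13.7, and 14.7 CPM (log2 fold change, 3.27 ± 0.29 SE, q = 4.42e-05). TL14d replicate 1 was the lowest of its group in each of these genes but lay above every TL3h library. The member that was not called was ANLN, an actin-binding protein of the cleavage furrow, at 6.34, 11.5, and 10.6 CPM and 8.44, 13.7, and 14.3 CPM (q = 0.401). The summed level of the list was 102, 85.1, and 116 CPM at TL3h and 362, 489.7, and 604 CPM at TL14d. It was 405, 542, and 289 CPM in control eyes and 1082, 1054, and 1084 CPM at TL3d, above every TL14d library.

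DNA replication genes were higher in 27 of 38 members tested and lower in 2 (median, 1.34). The summed level of the list was 509, 460, and 557 CPM at TL3h and 1021, 843, and 914 CPM at TL14d. It was 1020, 794, and 585 CPM in control eyes and 1774, 1376, and 1332 CPM at TL3d, above every TL14d library. TYMS, which makes thymidylate, rose from 4.07, 5.77, and 3.88 CPM to 32.6, 32.96, and 35.5 CPM (log2 fold change, 2.88 ± 0.39 SE, q = 3.31e-04). MCM2, a subunit of the replicative helicase, rose from 10.6, 10.4, and 10.2 CPM to 62.7, 42.2, and 56.8 CPM (log2 fold change, 2.37 ± 0.30 SE, q = 2.51e-04), and TK1, thymidine kinase, from 7.15, 3.49, and 5.67 CPM to 31.9, 23.1, and 26.3 CPM (log2 fold change, 2.32 ± 0.39 SE, q = 0.001004). POLE, the catalytic subunit of polymerase ε, rose from 3.73, 2.41, and 3.84 CPM to 19.8, 13.3, and 19.2 CPM (log2 fold change, 2.39 ± 0.39 SE, q = 8.63e-04). The polymerase clamp PCNA was not called, at 72.6, 79.5, and 83.4 CPM and 60.3, 96.5, and 83.5 CPM (q = 0.921). The 2 lower members were CDC6 and RFC3, and at most 1 of them was called when control replicate 2, any TL3h or TL3d library, TL14d replicate 2, or TL14d replicate 3 was left out. Of 25 targets of p53 tested, 8 were higher and 4 lower, beside 22.9% and 22.3% of all genes tested, and 5 were higher without TL14d replicate 2. The median was −0.17 with all libraries and 0.15 without TL14d replicate 1. DDB2, which recognizes ultraviolet damage, rose from 16.6, 17.2, and 11.5 CPM to 74.9, 124, and 98.3 CPM (log2 fold change, 2.71 ± 0.30 SE, q = 1.31e-04). FAS, the death receptor, fell from 82.99, 70.9, and 75.9 CPM to 3.43, 26.5, and 9.896 CPM (log2 fold change, −2.53 ± 0.58 SE, q = 0.0058997). CDKN1A, the cyclin-dependent kinase inhibitor p21, was at 1273, 1079.8, and 839 CPM and 142, 969, and 586 CPM and was not called (q = 0.215). TL14d replicate 2 lay within the TL3h range of p21, replicate 3 below it, and replicate 1 near the control eyes, at 135, 104, and 52.6 CPM.

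Genes of the cilium, the microtubule-based organelle that carries Hedgehog signaling, were higher at TL14d in 30 of 46 members tested and lower in 4, among them BBS5, MAK, and IFT20 (median, 0.98). Between 25 and 31 were higher when single libraries were left out. WDR19 and IFT81, subunits of the intraflagellar transport machinery, rose from 3.77, 5.06, and 5.71 CPM to 21.6, 15.5, and 20.6 CPM (log2 fold change, 1.99 ± 0.20 SE, q = 8.17e-05) and from 4.11, 4.48, and 3.33 CPM to 15.9, 11.8, and 15.4 CPM (log2 fold change, 1.85 ± 0.19 SE, q = 9.02e-05). PTCH1, the Hedgehog receptor, rose from 2.73, 4.65, and 4.57 CPM to 21.3, 9.29, and 12.96 CPM (log2 fold change, 1.86 ± 0.33 SE, q = 0.0013004). GLI2, a transcription factor of the pathway, rose from 0.692, 0.622, and 0.622 CPM to 3.06, 8.15, and 11.2 CPM (log2 fold change, 3.53 ± 0.84 SE, q = 0.00699). For the intraflagellar subunits TL14d was within or near the range of control eyes, 21.9, 18.7, and 17.1 CPM for WDR19 and 17.4, 16.4, and 14.8 CPM for IFT81. The summed level of the list was 392.3 to 463 CPM at TL3h, 652 to 792 CPM at TL14d, and 754 to 764 CPM in control eyes.

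**Figure D4:**
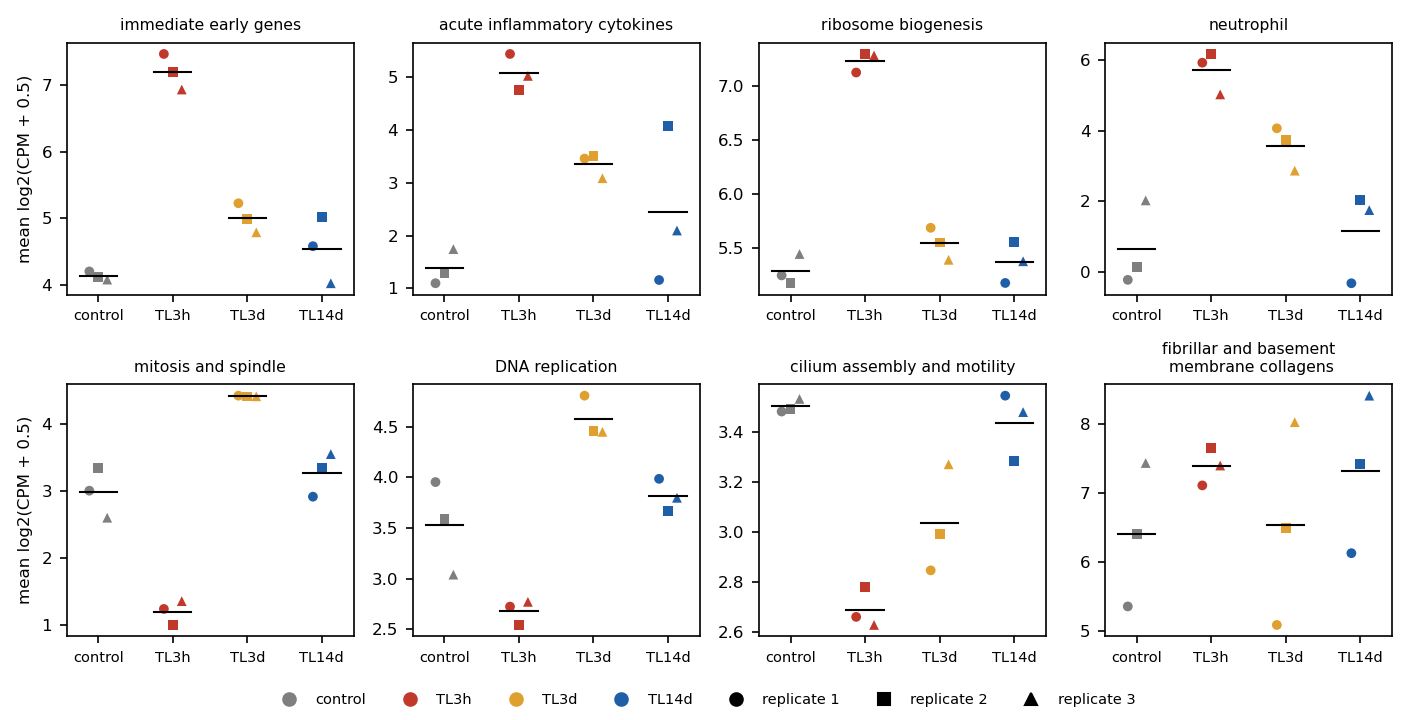
Mean log2(CPM + 0.5) over the tested members of 8 gene lists, 1 point per library with a line at the group mean, for control, TL3h, TL3d, and TL14d. Each panel has its own vertical axis. TL3h is highest for immediate early, cytokine, ribosome biogenesis, and neutrophil lists and lowest for mitosis, replication, and cilium lists, and the TL14d points are widely spread in the cytokine and collagen panels.

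Among markers of conjunctival epithelium 6 of 19 members tested were higher and 4 lower at TL14d (median, 0.28), beside 22.9% and 22.3% of all genes tested, with 3 higher without TL3h replicate 2. GRHL2, a transcription factor of epithelial identity, rose from 34.3, 15.02, and 48.7 CPM to 236, 186, and 173 CPM (log2 fold change, 2.6 ± 0.45 SE, q = 0.00126). The tight junction gene CLDN8 rose from 4.34, 1.37, and 1.65 CPM to 31.6, 9.62, and 11.8 CPM (log2 fold change, 2.85 ± 0.67 SE, q = 0.00667), whereas its relative CLDN4 fell from 2546, 1651, and 2609 CPM to 596, 463, and 212 CPM (log2 fold change, −2.42 ± 0.45 SE, q = 0.00173). The adhesion molecule CDH1, E-cadherin, was at 854, 817, and 942 CPM and 652, 613, and 498 CPM and was not called (q = 0.0836), except without TL3d replicate 3 (q = 0.0425) and with the replicate block (q = 0.0452, range over 20 settings, 0.0425 to 0.823). Among wound and barrier keratins and envelope genes 7 of 22 members tested were lower and 2, KRT5 and KRT3, higher (median, 0.19). The median ranged from −0.11 to 0.55 with single libraries left out. KRT16, a keratin of wounded epithelium, was at 230.1, 197, and 153 CPM and 0.168, 20.9, and 2.77 CPM (log2 fold change, −4.60 ± 1.33 SE, q = 0.0176), and q was 0.0595 without TL14d replicate 3 (range over 20 settings, 2.13e-04 to 0.0595). The lower members of this list numbered 4 without TL3h replicate 2 and 3 without TL14d replicate 3, and the higher ones 4 without TL14d replicate 1 and 1 without control replicate 2, TL3h replicate 2 or 3, TL3d replicate 2, or TL14d replicate 2 or 3. FCGBP, a mucus protein of goblet cells, rose from 448, 96.5, and 207 CPM to 1089, 1825, and 1749.7 CPM (log2 fold change, 2.63 ± 0.64 SE, q = 0.00745) and was the single goblet cell and mucin gene called of 9 tested, with a lower one called as well without TL14d replicate 3.

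Most collagens, the material of a scar, were not called, and over all genes tested 45.3% were called, 22.9% higher and 22.3% lower. Of 27 fibrillar and basement membrane collagens tested, 3 were higher at TL14d and none lower (median, 0.27). They were COL8A1, described above, COL8A2, and COL7A1. COL8A2, the other chain of collagen VIII, was at 6.46, 12.7, and 7.61 CPM at TL3h and 8.74, 299, and 368 CPM at TL14d (log2 fold change, 4.66 ± 1.23 SE, q = 0.0119). COL7A1, the anchoring fibril collagen, was at 174, 210.4, and 178 CPM and 253, 519.9, and 460.2 CPM (log2 fold change, 1.13 ± 0.26 SE, q = 0.00592). The interstitial collagens were highest at TL3h. COL1A1, whose protein the study stained, was at 22457, 29728, and 27029.6 CPM at TL3h and 5981, 3035, and 16898 CPM at TL14d (q = 0.288). COL3A1 was at 35664, 38140.5, and 33914 CPM and 8709, 3651, and 17686 CPM (q = 0.229). No TL14d library reached the TL3h level of either, but the TL14d libraries differed among themselves, and neither gene was called. One collagen was called lower without TL3h replicate 1. The share of all counts taken by COL1A1, COL1A2, and COL3A1 was 7.33 to 8.103% at TL3h and 2.605, 1.12, and 5.67% at TL14d. It was 1.18, 3.602, and 6.73% in control eyes, so that this share varied widely within the TL14d and control groups.

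Without TL14d replicate 1, 9 of the collagens were higher and 2 lower (20.9% and 21.1% of all genes under that setting). Myofibroblast and contractile genes, which mark the cells that contract a scar, were higher in 2 of 19 members tested, beside 22.9% of all genes tested. The median of the list was 0.75 and ranged from 0.28 to 1.22 with single libraries left out. Its higher members numbered 7 without TL14d replicate 1 and 1 without TL3d replicate 2 or TL14d replicate 3. None was higher without TL14d replicate 2 or any one TL3h library. ACTA2, the α-smooth muscle actin that the study stained in blebs, was at 30.3, 29.7, and 35.2 CPM at TL3h and 5.14, 142, and 352 CPM at TL14d (log2 fold change, 2.39 ± 1.24 SE, q = 0.141). TL14d replicates 2 and 3 were above all TL3h libraries and replicate 1 was below them, and without it the gene was higher (q = 0.0357, range over 20 settings, 0.0357 to 0.592). FN1, fibronectin, also had TL14d replicates 2 and 3 above and replicate 1 below all TL3h libraries, at 2039, 2352, and 2269 CPM and 415, 23263, and 12696 CPM (q = 0.09804). It was higher without replicate 1 (q = 0.0119, range over 20 settings, 0.0119 to 0.4904). TPM1 and TPM2, tropomyosins of stress fibers, were called with all libraries (q = 0.0235 and 0.0443). TPM1 was at 72.6, 54.2, and 67.2 CPM and 51.2, 549, and 323 CPM, and its q was 0.0539 without TL3h replicate 1, 0.0724 without TL3h replicate 2, 0.0615 without TL3h replicate 3, and 0.0908 without TL14d replicate 2 (range over 20 settings, 0.00139 to 0.0908). TPM2 was at 24.3, 15.4, and 17.9 CPM and 18.2, 136, and 189 CPM, and its q was 0.0819 without TL3h replicate 1, 0.118 without TL3h replicate 2, 0.1105 without TL3h replicate 3, 0.0562 without TL3d replicate 2, 0.0857 without TL14d replicate 2, and 0.131 without TL14d replicate 3 (range over 20 settings, 0.005501 to 0.131).

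Other matrix genes moved singly. PLOD2, a lysyl hydroxylase that shapes collagen crosslinks, rose from 25.8, 14.9, and 27.99 CPM to 28.1, 345, and 163 CPM (log2 fold change, 2.97 ± 0.77 SE, q = 0.0107). It was 1 of 2 genes called, both higher, of 21 for collagen processing and crosslinking, beside 22.9% higher over all genes tested. The second, the prolyl hydroxylase P4HA3, was at 3.81, 7.09, and 3.91 CPM and 4.71, 34.04, and 123 CPM (q = 0.0377). Its q was 0.103 without TL3h replicate 1, 0.0739 without TL3h replicate 2, 0.107 without TL3h replicate 3, 0.0512 without TL3d replicate 2, and 0.173 without TL14d replicate 3 (range over 20 settings, 0.00196 to 0.173), so that the count of the list was 1 without those libraries. With the 6 compared libraries alone, and likewise with the replicate block, 2 of the list were higher and 3 lower. LOX, lysyl oxidase, was at 409.7, 1165, and 781 CPM and 112, 76.7, and 419 CPM and was not called (q = 0.285). SPP1, osteopontin, rose from 307, 152, and 256 CPM to 975, 890.4, and 935 CPM (log2 fold change, 1.97 ± 0.40 SE, q = 0.00291). IBSP, bone sialoprotein, had no count in any TL3h or control library and 0, 31.6, and 18.5 CPM at TL14d, at least 143-fold higher in the group mean against a floor of 3 counts in each TL3h library (q = 0.0217). Its q was 0.0511 without TL3h replicate 3 (range over 20 settings, 3.25e-04 to 0.0511). Over all genes tested, 22.9% were higher and 22.3% lower. Of 20 matricellular wound proteins tested, 4 were higher, SPP1, IBSP, TNC, and TGFBI, and 1 was lower, FBLN1. The median was −0.33 and ranged from −1.62 (without TL14d replicate 3) to 0.08 (without TL14d replicate 1). TNC passed narrowly (q = 0.0471), and its q was 0.05102 to 0.126 in the 11 fits without any one library other than TL14d replicate 1 (range over 20 settings, 0.00101 to 0.585). Of the list 1 or 2 were higher without control replicate 2, TL3d replicate 2, or any one TL3h library. Of the lower members 3 were called without control replicate 1, 2 without control replicate 2 or 3, and none without TL3h replicate 2 or TL14d replicate 2 or 3. The balance turned to 1 higher and 4 lower with the 6 compared libraries alone and to 2 higher and 4 lower with the replicate block, and limma-trend called 2 in each direction.

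Of 20 matrix metalloproteinases and TIMPs tested, 3 were higher and 4 lower (median, −0.70), no more than the shares over all genes tested (22.9% and 22.3%). The median of the list ranged from −1.10 to −0.27 with single libraries left out. MMP15, a membrane-type protease, rose from 14.5, 3.98, and 9.66 CPM to 148, 98.7, and 120.2 CPM (log2 fold change, 3.70 ± 0.50 SE, q = 3.13e-04), with control eyes at 134, 135, and 51.3 CPM. MMP11, stromelysin 3, rose from 1.35, 1.78, and 1.79 CPM to 6.86, 26.8, and 69.8 CPM (log2 fold change, 4.39 ± 0.98 SE, q = 0.00505). Higher members numbered 6 without TL14d replicate 1 and 2 without TL3h replicate 2, and lower members 2 without TL3h replicate 2. The hyaluronan synthases HAS3 and HAS1 fell. HAS3 was at 158, 74.6, and 32.5 CPM and 0.572, 2.36, and 3.06 CPM (log2 fold change, −5.46 ± 1.08 SE, q = 0.00253), and HAS1 was at 11.2, 14.3, and 3.15 CPM and 0.168, 0.0815, and 0.0977 CPM (log2 fold change, −6.34 ± 0.68 SE, q = 1.04e-04). Over the hyaluronan and proteoglycan list 6 of 23 members tested were lower and 1, ACAN, higher (median, −0.78), and with TL3h replicate 3 or TL14d replicate 3 left out 4 were lower and none higher. The median of this list ranged from −1.49 (without TL14d replicate 3) to −0.44 (without TL14d replicate 1). ACAN was also lost without TL3h replicate 1 or 2. DCN, decorin, a proteoglycan that binds collagen fibrils, was at 9318, 17662, and 10917 CPM and 2419, 291, and 1931 CPM (log2 fold change, −3.03 ± 1.06 SE, q = 0.0393), and its q was 0.0516 to 0.0972 in the 8 fits without control replicate 2, TL3d replicate 2, or any one TL3h or TL14d library (range over 20 settings, 0.00331 to 0.0972).

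Leaving out TL14d replicate 1 brought 580 further genes past the threshold that have at least 1 CPM in the higher group, and the 6 in each direction with the largest difference of TL14d replicates 2 and 3 from TL3h on the log2(CPM + 0.5) scale are given here. With all libraries kept, the DESeq2 Wald test called 11 of these 12 genes, limma-trend 5, edgeR with library size alone 6, and edgeR with a mean of at least 1 CPM 1. Of the higher ones, COL11A1, a fibrillar collagen of cartilage and of activated fibroblasts, was at 2.23, 5.14, and 5.85 CPM at TL3h and 0.303, 285, and 1509 CPM at TL14d, and LRRC15, a membrane protein of activated fibroblasts, was at 1.85, 4.23, and 1.46 CPM and 0, 56.2, and 286 CPM. CTHRC1, a secreted protein of remodeling tissue, was at 3.19, 2.697, and 3.0 CPM and 0.538, 17.3, and 186 CPM. In all 3 genes replicate 3 was the highest. EDIL3, an integrin ligand of the matrix, was at 2.34, 0.705, and 0.585 CPM and 0.168, 56.3, and 24.1 CPM. PLET1, an epithelial surface protein, was at 11.7, 25.7, and 7.65 CPM and 1.34, 488, and 43.1 CPM, and KRT12, the keratin of corneal epithelium, was at 5.34, 3.65, and 0.878 CPM and 0.672, 139, and 7.62 CPM. In these 3 genes replicate 2 was the highest. The rule of choice put q above 0.05 with all libraries and at most 0.05 without replicate 1. For these 6 genes q was 0.0528 to 0.06498 and 0.00749 to 0.0267.

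The lower ones were higher in TL14d replicate 1 than in the other TL14d libraries, which the choice of genes called only without it favors. FRZB, a secreted antagonist of Wnt, was at 147, 459, and 278 CPM at TL3h and 112, 3.695, and 14.6 CPM at TL14d, with control eyes at 50.3, 72.7, and 291 CPM. CNTN1, a neuronal and glial adhesion protein, was at 330.3, 464, and 669.96 CPM and 114, 4.999, and 38.6 CPM. COL9A3, a chain of cartilage collagen IX, was at 60.04, 154, and 69.6 CPM and 20.5, 0.1902, and 2.83 CPM, and KAZALD1, an insulin-like growth factor binding protein, was at 63.7, 177, and 80.5 CPM and 25.1, 0.516, and 3.39 CPM. All 4 were lower at TL3d as well, at 2.12, 7.85, and 25.2 CPM for FRZB and 3.02, 7.298, and 62.2 CPM for CNTN1. CD5L, a macrophage protein, was at 18.6, 29.8, and 19.6 CPM and 4.57, 0, and 0.163 CPM. LOC100353821 was at 70.3, 89.2, and 36.4 CPM and 161, 0.163, and 3.94 CPM, above 1 CPM in no TL3d library. Its q was 0.903 with all libraries and 0.00852 without replicate 1, and for the other 5 genes it was 0.05402 to 0.0991 and 0.00487 to 0.0437. Across the 20 alternative settings the lowest and highest q of these 12 genes were 0.00121 and 0.977.

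**Figure D5:**
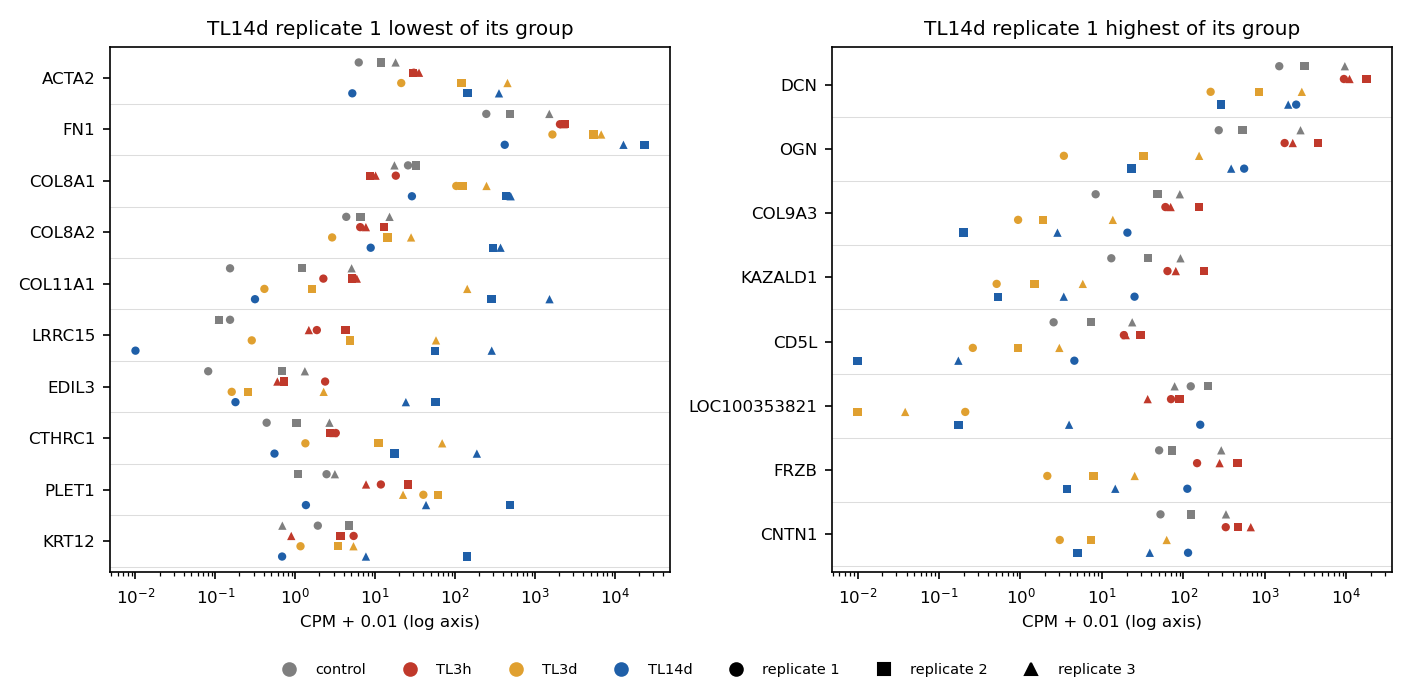
Levels in CPM + 0.01 on a log axis for genes in which TL14d replicate 1 was the lowest (left) or the highest (right) of the 3 TL14d libraries, 1 point per library, color for the group and marker shape for the replicate number. In the left panel, for COL8A1, COL11A1, and LRRC15, TL14d replicate 1 lies within or below the range of the control libraries and replicates 2 and 3 above it, and in the right panel replicates 2 and 3 lie within the range of the TL3d libraries for DCN, KAZALD1, FRZB, and CNTN1.

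In other cell types a smaller share of the markers was called than in neutrophils, except for both red blood cell markers. Monocyte and macrophage markers were lower in 4 of 13 members tested and higher in 1 (median, −1.18), beside 22.3% and 22.9% of all genes tested, with summed levels of 1229, 1908, and 1404 CPM at TL3h and 432, 1922, and 726 CPM at TL14d. CD163, a scavenger receptor that glucocorticoids induce, fell from 127, 144, and 144 CPM to 5.35, 8.18, and 25.6 CPM (log2 fold change, −3.41 ± 1.02 SE, q = 0.0208). Its q was 0.0646 without TL14d replicate 1 and 0.0662 without TL14d replicate 2 (range over 20 settings, 5.49e-04 to 0.0662). The higher member was MMP12, macrophage elastase, at 3.65, 2.32, and 2.52 CPM and 0.303, 1019.6, and 43.5 CPM (log2 fold change, 6.96 ± 1.99 SE, q = 0.01696). TL14d replicate 2 was far above the other libraries, and without it the log2 fold change was 2.95. The q of MMP12 was 0.0519 without TL3h replicate 1, 0.0606 without TL3h replicate 2, 0.0602 without TL3h replicate 3, and 0.101 without TL14d replicate 2 (range over 20 settings, 4.83e-06 to 0.257). Only 1 or 2 members of this list were lower when control replicate 2, TL3d replicate 1, or any one TL3h or TL14d library was left out. The higher members numbered 2 without TL14d replicate 1 or 3.

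T and NK cell markers were low at both times, with 3 of 16 members called, beside 45.3% of all genes tested. Their summed level was 50.05 to 92.1 CPM at TL3h and 18.4 to 55.2 CPM at TL14d. PRF1, perforin, fell from 3.57, 3.98, and 3.04 CPM to 0.874, 0.788, and 0.944 CPM (log2 fold change, −2.02 ± 0.45 SE, q = 0.00517). The higher member, CD8B, was lost without TL3h replicate 1 or 3 or TL14d replicate 3, and 2 members were higher without TL3h replicate 2. Markers of red blood cells, HBB2 and ALAS2, were both lower (q = 0.0399 and 0.0284). HBB2, a β-globin, was at 349, 2379.7, and 375 CPM and 47.6, 6.87, and 64.8 CPM, with TL3h replicate 2 far above the others. Its q was 0.0512 to 0.1398 in the 9 fits without control replicate 2, TL3h replicate 2 or 3, or any TL3d or TL14d library (range over 20 settings, 0.00923 to 0.1398). The q of ALAS2 was 0.137 without TL3h replicate 2, 0.0798 without TL14d replicate 1, and 0.0792 without TL14d replicate 2 (range over 20 settings, 0.0123 to 0.137).

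Of 14 markers of blood endothelium tested, 4 were lower, beside 22.3% of all genes tested, and none higher (median, −0.49). The median ranged from −1.29 to −0.17 with single libraries left out. PECAM1, an adhesion molecule shared by endothelium, platelets, and leukocytes, fell from 717, 972, and 459 CPM to 17.99, 27.8, and 68.1 CPM (log2 fold change, −4.24 ± 0.99 SE, q = 0.00634). It was the member that stayed called in every fit without a library, and 1 or 2 members were called without control replicate 2, any TL3h or TL14d library, or TL3d replicate 1 or 2. In the lymphatic endothelium, which drains the subconjunctival space, 3 of 7 markers were lower, MMRN1, LYVE1, and PDPN, and 1 higher, RELN. MMRN1 was at 336, 248, and 296 CPM and 37.1, 3.61, and 46.6 CPM (log2 fold change, −3.33 ± 1.02 SE, q = 0.02305), and its q was 0.0507 without TL14d replicate 1 (range over 20 settings, 7.85e-04 to 0.0507). LYVE1, the hyaluronan receptor, was at 357, 410.2, and 348 CPM and 39.2, 2.26, and 41.5 CPM (log2 fold change, −3.75 ± 1.23 SE, q = 0.0303), and its q was 0.0544 without TL3h replicate 1, 0.0614 without TL3h replicate 2, 0.0564 without TL3h replicate 3, 0.0597 without TL14d replicate 1, 0.0527 without TL14d replicate 2, and 0.0589 without TL14d replicate 3 (range over 20 settings, 0.00781 to 0.0614). No TL14d library reached TL3h for either gene, and no lower member was called without TL14d replicate 1. With a TL3h library or another TL14d library left out, 1 or 2 were lower, and RELN was lost without TL14d replicate 2, TL3d replicate 1 or 2, or any one TL3h library. Of 15 fibroblast and pericyte markers 1 was higher and 2, DCN and FBLN1, were lower, with none or 1 lower without control replicate 2, TL3d replicate 2, or any one TL3h or TL14d library. The higher one, NOTCH3, a receptor of pericytes and vascular smooth muscle, rose from 72.1, 39.8, and 53.1 CPM to 299.8, 508, and 331 CPM (log2 fold change, 2.79 ± 0.35 SE, q = 2.36e-04), with control eyes at 323, 273, and 146 CPM. The summed level of this list, in which DCN was the most abundant member at TL3h, was 14452, 26940.3, and 15743 CPM at TL3h and 4776, 1561, and 6039 CPM at TL14d. The part of this list in the changes of the matrix genes was not tested.

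Set beside the other groups, the genes that separated the 2 times mostly had TL3h as the extreme. Of the 3402 genes higher at TL14d, the control mean was nearer to TL14d than to TL3h in 88.8%, and of the 3313 lower genes in 94.3%. The control mean was above both in 40.1% of the higher genes and below both in 50.7% of the lower genes. TL14d replicate 1, which resembled the control libraries, entered the TL14d means, and shares without it are not given. The TL3d mean lay between those of TL3h and TL14d in 70.0% of the higher and 73.4% of the lower genes. It was above both in 26.9% of the higher genes, mitosis genes among them, and below both in 23.3% of the lower genes. These shares describe genes that were chosen by their TL3h and TL14d values, and they were not tested.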

How the data were processed

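Conjunctiva with its bleb was sequenced as 150 bp paired reads. The authors mapped them to OryCun2.0 with STAR 2.6.0c and deposited estimated counts per gene from GeneData Profiler, which are not normalized and partly fractional, and FPKM values, which are used here only to compare levels between genes. Strand use in counting is not given in the sources used here. A second deposited table, of transcripts, was not used here. Groups and replicate numbers came from the labels. The deposited estimated counts were rounded, filtered with filterByExpr (minimum count, 10, minimum total, 15), scaled by TMM, and fitted in edgeR 4.0.16 (R 4.3.3) as a quasi-likelihood model of all 12 libraries in 4 groups, with Benjamini-Hochberg adjustment over the 14835 genes tested and q ≤ 0.05 as threshold. The design had assumed whole counts. SE was taken as the log2 fold change divided by the square root of F. Total counts were 27111276 to 38591374 per library, and the floor of 3 counts was 0.0712 to 0.124 CPM, for counting error only. The study describes its sequencing values as averages of 3 eyes, but the labels do not say that libraries came from separate animals. The p-values measure only the spread between these libraries, and an exact test of 3 against 3 could not go below 0.1.

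Genes were named by a rule: the 12 in each direction with the largest difference between group means of log2(CPM + 0.5) among those called, not overlapping, and with at least 1 CPM in the higher group, up to 4 called and 2 abundant uncalled members of each of 45 lists, and the 6 in each direction with the largest such difference among genes not called with all libraries and called without TL14d replicate 1. ACTA2 and COL1A1 were added because their proteins were stained, and members listed by name without values were chosen after their values were seen. Some genes that the rule names are not reported here, 1 of them among the 12 lower genes. The comparison, the members, and the lists were chosen with earlier results of these data known. The fit was tested on simulated data, in which 71 of 100 genes changed 8-fold and 9 of 100 changed 2-fold were recovered among 14835. The simulation changed far fewer genes than were called in the data, and its means were taken over all groups. Its shares therefore do not give the recovery in the data. Alternatives were DESeq2 1.42.0, limma 3.58.1, other scalings, filters, and samples, each library left out, and a replicate block. Whether equal replicate numbers paired the eyes was checked by the correlation of their deviations.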

Additional observations from a re-analysis of the deposited data

How the results depend on the processing

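The 6715 genes called stayed within 1.5 times of that number under DESeq2 size factors (6670), the DESeq2 Wald test (7625), limma-trend (6829), no filter on low counts (6461), a mean of at least 1 CPM (6482), and the 6 compared libraries alone (5194). When single libraries were left out, 5464 to 6798 were called, the fewest without TL3h replicate 2 and the most without control replicate 3. With a change of at least 2-fold as a further condition 4211 genes were called, of which 1925 were lower. With library size alone 5775 genes were higher and 1669 lower, and 77.6% of the calls were then higher, against 50.7% with TMM. That scaling raised the median over all genes by 0.49, and of the 32 lists with a median below 0 it put 10 above 0, among them lysosomal genes (0.22) and cytosolic ribosomal proteins (0.19), and LOC100353821 was at 0.25. LOC100353821 ranged from −5.01 (without TL14d replicate 1) to 0.34 and was positive without TL3h replicate 2 or TL14d replicate 2 or 3, and PCNA ranged from −0.13 (without TL14d replicate 2) to 0.20. With single libraries left out the median of clock genes ranged from −0.0030 (TL14d replicate 1) to 0.55, that of pigment cell markers from −0.84 (TL14d replicate 2) to 2.15, and that of skeletal muscle markers from −1.03 to 0 (TL3h replicate 2 or TL14d replicate 3). With the 6 compared libraries alone 8 proteasome subunits were lower and no ribosomal protein. Where a list had no member called in a direction by edgeR, an unadjusted p under 0.05 gave none either, except 1 higher ATF4 target, 1 lower goblet cell gene, and 2 lower collagens. The DESeq2 Wald test called 1 higher ATF4 target, 2 lower collagens, and 1 lower collagen processing gene in those places, and limma-trend 1 lower collagen. The cause of these shifts was not tested.

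The labels number the replicates of each group but do not say that equal numbers share an animal or a day. Deviations of equal-numbered TL3h and TL14d libraries correlated at 0.06, −0.06, and −0.07, so that the numbers were not taken as pairs. With the replicate block 6844 genes were called. Depth limits the lowest levels, since 3 counts correspond to 0.0712 to 0.124 CPM.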

Other observations

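The counts of the further lists given here stand beside 22.3% lower and 22.9% higher over all genes tested, and most of them lie near or under these shares. Interferon-stimulated genes were lower at TL14d in 6 of 28 members tested and higher in 1, IFI44 (median log2 fold change, −0.21). RSAD2, the antiviral enzyme viperin, fell from 171, 124, and 47.9 CPM to 27.3, 16.8, and 22.1 CPM (log2 fold change, −2.38 ± 0.48 SE, q = 0.00279), and IFIT3 from 129, 126, and 58.5 CPM to 21.5, 32.5, and 27.6 CPM (log2 fold change, −1.94 ± 0.34 SE, q = 0.001397). IFI44 was no longer called without control replicate 2, TL3h replicate 1 or 3, or any one TL3d or TL14d library. With library size alone the median of the list was 0.27, with 3 members higher and 3 lower. Of 14 antigen presentation genes 2 were lower, B2M and CD1D, and 1 was higher, CIITA, and the counts moved to 1 or 2 lower and 0 to 2 higher when single libraries were left out.

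Among genes of the TGF-β pathway, which drives fibrosis, 5 of 23 members tested were lower and 4 higher (median, −0.13). The higher members were BAMBI, SMAD6, LTBP2, and PMEPA1, and 1 or 2 of the list were higher without control replicate 1 or 2, TL3d replicate 2, TL14d replicate 2, or any one TL3h library, and 2 were lower without TL3h replicate 3, where the median turned to 0.13. In the list of oxidative phosphorylation subunits, which also holds the coactivator PPARGC1A, 10 of 40 members tested were lower and 5 higher (median, −0.05), near the share over all genes for the lower and below it for the higher members. Of the list 5 were lower without TL3h replicate 1, 6 without TL3h replicate 3 or TL14d replicate 3, and 2 with the 6 compared libraries alone, where 2 were also higher, as they were without TL14d replicate 2. PPARGC1A, which drives mitochondrial biogenesis, was 1 of the higher members and rose from 1.999, 0.954, and 1.32 CPM to 13.9, 6.03, and 13.1 CPM (log2 fold change, 2.95 ± 0.45 SE, q = 6.52e-04). Lysosomal genes were lower in 5 of 29 members tested and higher in 4, a smaller share than over all genes in both directions. Without TL14d replicate 2, 8 were lower, and 3 were lower without TL3h replicate 2, TL3d replicate 1 or 2, or TL14d replicate 3, and 2 were higher without TL3h replicate 3. With library size alone, which raised the median over all genes by 0.49, 22 members of the oxidative phosphorylation list were higher and none lower, 10 lysosomal genes were higher and 2 lower, and 7 of the circadian clock genes described next were higher and 2 lower. LAMP2, a lysosomal membrane protein, fell from 365, 457, and 374 CPM to 127, 159.6, and 174 CPM (log2 fold change, −1.38 ± 0.26 SE, q = 0.00195).

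Of 17 circadian clock genes tested, 3 were higher and 3 lower, below the share over all genes in each direction. HLF and TEF, activators of the clock's output, rose by 1.82 and 1.88 on the log2 scale (q = 0.00574 and 0.00496), whereas NFIL3, which represses the same sites, fell by 4.56 (q = 0.00137). NFIL3 was at 86.5, 115, and 58.02 CPM at TL3h and 0.706, 6.33, and 3.97 CPM at TL14d. HLF was at 27.4, 14.6, and 30.3 CPM and 119, 58.2, and 77.02 CPM, with control eyes at 93.7, 98.6, and 153 CPM. The clock time of each collection is not given in the sources used here. Among cholesterol and fatty acid genes 5 of 17 members tested were lower and 3 higher, and 1 to 3 were lower without control replicate 2 or 3, TL3h replicate 1 or 3, TL3d replicate 1 or 2, or TL14d replicate 1 or 3. LSS, an enzyme of cholesterol synthesis, rose from 35.6, 26.4, and 54.4 CPM to 104, 86.7, and 86.1 CPM (log2 fold change, 1.25 ± 0.27 SE, q = 0.00377).

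Of the remaining cell types, B and plasma cell markers had 3 of 15 members higher and 3 lower, with 1 higher and 2 lower without TL3h replicate 1 or 2 or TL14d replicate 2. Mast cell markers had 1 of 5 higher, KIT, and 1 lower, HDC, and neither was called without TL3h replicate 2. HDC was kept and KIT lost without TL3h replicate 3 or TL14d replicate 1. Schwann cell and nerve markers had 2 of 17 higher, ERBB3 and NGFR, and 2 lower, MBP and PMP22, with 1 higher without any one of 8 libraries. Without TL14d replicate 1, 4 were lower, and ERBB3, NGFR, and PMP22 were not called. MBP, a protein of myelin, fell from 35.98, 23.1, and 35.7 CPM to 10.7, 7.23, and 5.99 CPM (log2 fold change, −1.99 ± 0.28 SE, q = 3.78e-04). Adipocyte markers had 2 of 8 lower, DGAT2 and LPL, and none higher. Of 8 skeletal muscle markers none was called by edgeR's quasi-likelihood test with all libraries, and none at an unadjusted p under 0.05 or by the DESeq2 Wald test or limma-trend, although 2 were lower in the fit of the 6 compared libraries alone. Of 9 pigment cell markers 1 was higher, KIT, which mast cells share. It was lost without TL3h replicate 2 or 3 or TL14d replicate 1.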
